A study of Mus musculus with 21 samples.

Results

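The genes described are 30 that encode or control the enzymes of sterol and fatty acid synthesis, chosen by exact gene symbol from a table of 39396 mouse genes. Each symbol was in the table once, and all 30 passed the filter on low counts that left 16575 genes for testing. The sterol branch has 20 of them, 17 enzymes and the control genes Srebf2, Insig1 and Stard4. The fatty acid branch has 10, 9 enzymes and the control gene Srebf1. The choice used the symbols and no measured value, although earlier results of these data were known when the list was made.

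Cholesterol is built from acetyl-CoA through mevalonate, farnesyl diphosphate, squalene and lanosterol, and fatty acids from the same acetyl-CoA through malonyl-CoA. The transcription factors SREBP2, encoded by Srebf2, and SREBP1, encoded by Srebf1, switch on these genes when membranes are short of sterol, and the protein encoded by Insig1 holds them back in the endoplasmic reticulum when sterol is plentiful. Stem cells divide fast and need both kinds of lipid for new membranes.

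RNA was sequenced from 21 mouse libraries, 3 for each of 7 groups from the embryonic stem cell lines A2 and D3. Ground state cells of both lines grew in DMEM with 10% FBS, LIF at 1000 U/mL and the 2 inhibitors called 2i. Naive cells were the same cells 4 days after 2i was taken away. EPL cells were ground state cells moved for 4 days to DMEM with 10% FBS, LIF lowered to 330 U/mL and L-proline at 400 uM. EpiSCs, sampled in A2 alone, came from A2 cells placed in a pseudopregnant mouse, and were kept in KO DMEM and KOSR, a serum replacement, with activin A and bFGF. Beta-mercaptoethanol was in every medium. EpiSC and EPL cells therefore differ in medium and derivation as well as in stage, and these cannot be told apart. The series' design text calls the samples paired without saying what pairs them, and the labels do not say whether replicates were separate cultures. The p-values therefore reflect only how these libraries scatter, which may be technical. In bulk RNA, fewer cells with a transcript and less of it per cell cannot be told apart.

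Total counts ran from 15320599 to 23490527 per library. Levels are CPM, counts scaled to the library size after TMM, and differences are log2 differences ± SE from an edgeR quasi-likelihood fit to all 21 libraries. A gene was called at an edgeR adjusted p below 0.05. Pou5f1, the pluripotency factor Oct4, stood between 982 and 1578 CPM in the 18 libraries of the other groups and between 399.7 and 554 CPM in EpiSC. Fgf5, a marker of the epiblast after implantation, was between 3.63 and 25.7 CPM in EPL and EpiSC libraries and at most 1.33 CPM elsewhere. Dnmt3b, a DNA methyltransferase also high in such epiblast, was lower in EpiSC than in A2 EPL (-3.13 ± 0.09).

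Libraries stood apart in these genes and were kept, with values without them given where a result moves. Replicate 1 of A2 EPL was above the mean of its 2 companions in 27 of 30 members, with a median ratio of 1.31 and a highest ratio of 2.27 for Scd1. Replicate 3 of D3 ground was above its companions in 28 of 30, with a median ratio of 1.16. Replicate 3 of A2 EpiSC was above them in 7 of 30, with a median ratio of 0.878. Fibroblast markers summed to between 2092 and 2624 CPM in EpiSC and to at most 11.1 CPM elsewhere. All 8 markers had a count in EpiSC and also in A2 ground, and 3 of them (Dcn, Lum and Postn) had none in A2 naive. The 7 primitive endoderm markers summed to between 129 and 182 CPM in EpiSC, between 26.3 and 37.5 CPM in D3 EPL and at most 21.4 CPM elsewhere. Their part in the EpiSC and D3 EPL results was not tested. Exons of 11 members overlap those of another gene in the annotation (Hmgcs1, Idi1, Fdps, Fdft1, Lss, Cyp51, Tm7sf2, Srebf1, Scd2, Acss2 and Elovl6), and the kit does not mark strand, so some of their reads may belong to the neighbour.

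Promoter sequences show what the letters before these genes hold, since most members moved together between stages. RefSeq windows on GRCm38.p6, from 250 bases before to 50 after a start site, were matched for 23 of the 30. The 4 shown are Hmgcs1, which carries the single match to the sterol regulatory element core, Cyp51 and Insig1, which rose from naive to EPL, and Ebp, which fell there. Capitals mark matches on either strand to TCACNCCAC (the sterol element core), CCAAT (the NF-Y box, ATTGG on the other strand) and GGGCGG (the GC box, CCGCCC on the other strand), with the transcribed strand written 5′ to 3′. The Hmgcs1 window is chr13:119690101-119690400 (+ strand), that of Cyp51 chr5:4104648-4104947 (- strand), that of Insig1 chr5:28071162-28071461 (+ strand) and that of Ebp chrX:8193463-8193762 (- strand).
Hmgcs1: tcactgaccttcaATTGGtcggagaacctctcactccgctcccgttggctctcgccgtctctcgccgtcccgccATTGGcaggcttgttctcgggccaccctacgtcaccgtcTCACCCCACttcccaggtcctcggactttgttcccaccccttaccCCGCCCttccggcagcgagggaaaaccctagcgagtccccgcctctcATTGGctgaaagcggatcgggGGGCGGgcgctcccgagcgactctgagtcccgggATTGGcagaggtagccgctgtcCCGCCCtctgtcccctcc
Cyp51: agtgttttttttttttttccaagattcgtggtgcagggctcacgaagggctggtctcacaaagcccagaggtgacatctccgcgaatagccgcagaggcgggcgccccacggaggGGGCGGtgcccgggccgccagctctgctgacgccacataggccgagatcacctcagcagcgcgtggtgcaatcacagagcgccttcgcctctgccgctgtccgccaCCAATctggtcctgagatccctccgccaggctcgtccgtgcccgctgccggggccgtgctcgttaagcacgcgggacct
Insig1: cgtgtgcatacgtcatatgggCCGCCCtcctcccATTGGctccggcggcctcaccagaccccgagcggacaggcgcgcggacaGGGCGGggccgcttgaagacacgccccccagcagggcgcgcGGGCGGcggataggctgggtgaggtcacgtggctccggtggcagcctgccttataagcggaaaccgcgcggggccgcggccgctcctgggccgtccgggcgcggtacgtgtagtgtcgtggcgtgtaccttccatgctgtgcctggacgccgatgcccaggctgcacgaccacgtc
Ebp: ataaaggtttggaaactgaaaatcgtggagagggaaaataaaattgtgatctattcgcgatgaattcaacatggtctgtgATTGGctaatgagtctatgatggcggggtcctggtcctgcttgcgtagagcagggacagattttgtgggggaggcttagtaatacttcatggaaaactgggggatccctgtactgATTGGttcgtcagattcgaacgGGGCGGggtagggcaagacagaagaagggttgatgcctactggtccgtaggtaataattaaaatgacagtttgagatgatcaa

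CCAAT was found in at least 1 window of 20 of the 23 members that had one, and of 42.9% of the 11954 tested genes that had one. It was in 16 of 16 sterol members and in 4 of 7 fatty acid members, with no match for Acaca, Elovl6 and Fads2. The window of Acaca belongs to a start site far inside the annotated gene, not to its first, and the match of Dhcr7 is likewise in the window of an internal start site. GGGCGG was in 19 of 23 members and 66.5% of tested genes. TCACNCCAC was in 1 of 23, Hmgcs1 at -137 from the start site, and in 1.47% of tested genes. In Ebp, whose levels moved unlike the rest, ATTGG stood at -170 and -55 and GGGCGG at -33, so this window has the same 2 motifs as Cyp51 and Insig1. Only exact matches inside these windows were sought, so variant forms of a motif and sites elsewhere were not counted. These matches describe the letters and were not tested as binding sites.

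Naive cells had lower levels of most of these genes than ground state cells. Of the 30 members, 22 were called lower, 1 higher and 7 not called in naive against ground, where the differences of A2 and D3 are averaged. Over all tested genes 31.8% were called lower and 31.7% higher in that comparison. The median log2 difference of the members was -0.46, against 0.01 over all genes. In the sterol branch 13 of 20 were lower and 0 higher. In the fatty acid branch 9 of 10 were lower, and Acaca, the first committed enzyme of fatty acid synthesis, was higher. The largest falls were in the fatty acid branch, in Acss2 (-1.58 ± 0.10) and Scd1 (-1.42 ± 0.16), followed by the sterol enzyme Sqle (-1.07 ± 0.06). With each line on its own, 21 members were lower in A2, against 25.9% of all genes, and 19 in D3, against 27.3%.

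EPL cells had higher levels than naive cells for most of the same list. In EPL against naive, 23 members were called higher, 1 lower and 6 not called, against 27.1% higher and 24.1% lower over all genes. The members' median was 0.47 and that of all genes 0.01. The sterol branch had 15 of 20 higher and the fatty acid branch 8 of 10. Ebp, an isomerase late in cholesterol synthesis, was the member that was lower. The comparisons of naive with ground and of EPL with naive share the naive libraries, so a low value there moves both, and EPL was also set against ground directly.

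EPL and ground state cells, which share no library, differed in individual genes, while the members' median log2 difference rounded to that of all genes. In EPL against ground, 8 members were higher, 11 lower and 11 not called, against 33.1% higher and 33.2% lower over all genes, and both medians were 0.00. Among sterol members 6 were higher and 6 lower, and among fatty acid members 2 were higher and 5 lower. Acaca (0.86 ± 0.10), Dhcr7 (0.77 ± 0.11), Fads2 (0.65 ± 0.08) and Fdps (0.65 ± 0.12) were the largest rises. Ebp (-1.33 ± 0.08), Acss2 (-0.97 ± 0.10) and Elovl6 (-0.95 ± 0.07) were the largest falls. With scaling to total counts the split was 11 higher and 9 lower, beside 6191 higher and 4808 lower of 16575 genes. In D3 alone 5 members were lower, against 28.4% of all genes.

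**Figure D1:**
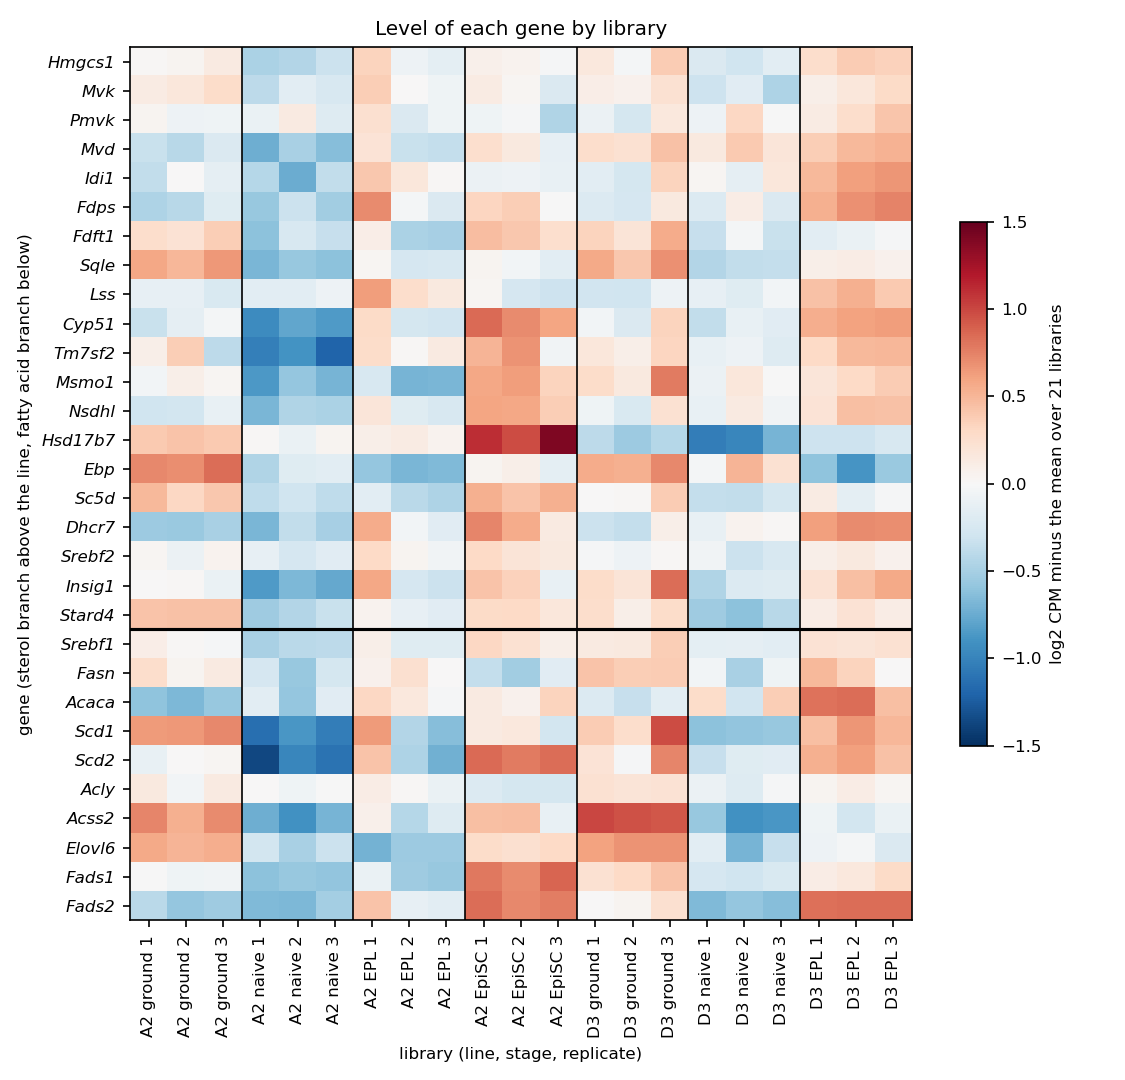
Each row is 1 of the 30 genes and each column 1 of the 21 libraries. Colour is log2 CPM minus the gene's mean over the 21 libraries, red above and blue below. The naive columns of A2 are blue for most rows, and A2 EPL replicate 1 is redder than its 2 companions.

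**Figure D2:**
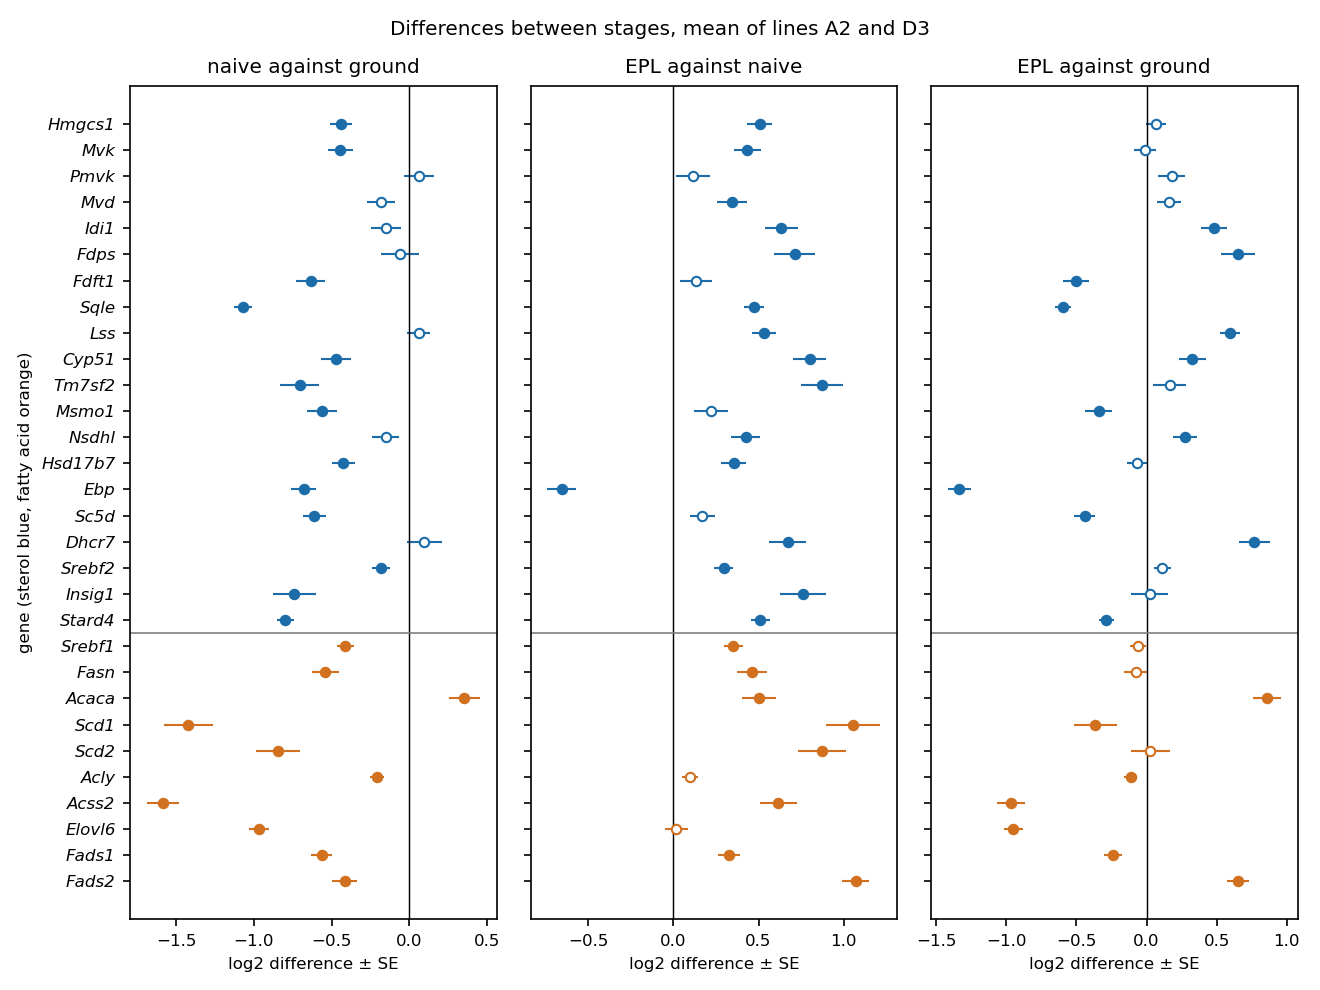
Points are log2 differences between stages, as the mean of A2 and D3, with bars of 1 SE, for 20 sterol (blue) and 10 fatty acid genes (orange). Filled points were called at an edgeR adjusted p below 0.05. In the left panel 22 are called below 0 and in the middle panel 23 above 0, while the right panel has 8 above and 11 below.

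Srebf2 and Srebf1 had smaller differences between stages than several of the enzymes. Srebf2, which encodes the SREBP that favours sterol genes, was measured in A2 at 283, 261 and 287 CPM in ground, 254, 232 and 245 CPM in naive, 340.2, 284 and 267 CPM in EPL and 339.5, 318 and 307 CPM in EpiSC. In D3, Srebf2 was at 272, 263 and 281 CPM in ground, 266, 221 and 234 CPM in naive and 295, 306 and 289.9 CPM in EPL. The groups lie close together: A2 naive is below A2 ground without overlap, D3 naive and D3 ground overlap, and EpiSC is above A2 ground. The log2 difference was -0.18 ± 0.06 (edgeR adjusted p = 0.009) in naive against ground and 0.30 ± 0.06 (edgeR adjusted p = 0.000199) in EPL against naive. In EPL against ground it was 0.11, which was not called.

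Srebf1, which encodes the SREBP that favours fatty acid genes, was at 101, 95.8 and 93.8 CPM in ground, 67.7, 71.6 and 72.0 CPM in naive, 101, 83.4 and 83.9 CPM in EPL and 118, 111 and 101 CPM in EpiSC in A2. In D3, Srebf1 was at 104, 105 and 122 CPM in ground, 85.8, 86.7 and 85.1 CPM in naive and 110.0, 108 and 112 CPM in EPL. Naive libraries were below every ground and EPL library of their line, and EPL overlapped ground in both lines. The differences were -0.41 ± 0.06 (edgeR adjusted p = 1.13e-06) in naive against ground and 0.35 ± 0.06 (edgeR adjusted p = 1.99e-05) in EPL against naive.

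Insig1, whose product retains the SREBPs and whose gene is itself a SREBP target, spanned more. In A2, Insig1 was at 63.7, 64.2 and 59.4 CPM in ground, 35.2, 39.9 and 37.3 CPM in naive, 95.2, 53.2 and 50.6 CPM in EPL and 85.5, 80.8 and 58.6 CPM in EpiSC. In D3, Insig1 was at 76.5, 72.7 and 114 CPM in ground, 46.6, 54.9 and 55.3 CPM in naive and 73.7, 86.8 and 93.7 CPM in EPL. The naive libraries were the lowest of each line with no overlap, while EPL overlapped ground, and the highest library of each of A2 EPL and D3 ground was the one that stood apart. Insig1 differed by -0.74 ± 0.14 (edgeR adjusted p = 5.98e-05) in naive against ground and 0.76 ± 0.14 (edgeR adjusted p = 7.73e-05) in EPL against naive. Stard4, a carrier of cholesterol between membranes, was lower in naive (-0.80 ± 0.05), higher in EPL against naive (0.51 ± 0.06) and lower in EPL against ground (-0.29 ± 0.05).

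Of the 6 enzymes that lead from acetoacetyl-CoA to farnesyl diphosphate, few were called at the first step and most at the second. In naive against ground 2 of the 6 were called lower, Hmgcs1 and Mvk, and 4 were not called. That share is near the 31.8% of all genes called lower. In EPL against naive 5 were called higher, against 27.1% of all genes, and Pmvk, which phosphorylates mevalonate again, was not (0.12 ± 0.10). Hmgcs1, the synthase that makes HMG-CoA, was in A2 at 247, 250.4 and 267 CPM in ground, 176, 180.3 and 195 CPM in naive, 307, 231 and 220.0 CPM in EPL and 256, 253 and 242 CPM in EpiSC. In D3, Hmgcs1 was at 272, 238 and 317 CPM in ground, 209, 198 and 218 CPM in naive and 291, 317 and 309 CPM in EPL. Each naive group was below all other libraries of its line, and ground and EPL overlapped. Its differences were -0.44 ± 0.07 (edgeR adjusted p = 1.51e-05) in naive against ground, 0.51 ± 0.07 (edgeR adjusted p = 4.59e-06) in EPL against naive and 0.07 ± 0.07 in EPL against ground, the last not called. Idi1, the isomerase of the 5-carbon unit, and Fdps, which joins such units, were the mevalonate enzymes called higher in EPL against ground (0.48 ± 0.09 and 0.65 ± 0.12). Mvk, the mevalonate kinase, and Mvd, the decarboxylase, rose from naive to EPL by smaller amounts (0.43 ± 0.08 and 0.34 ± 0.09).

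From farnesyl diphosphate to lanosterol the 3 enzymes differed from one another. Sqle, the squalene epoxidase and a rate-limiting step, was in A2 at 177, 168 and 185 CPM in ground, 73.5, 80.0 and 77.6 CPM in naive, 121, 99.7 and 101 CPM in EPL and 122, 115 and 106 CPM in EpiSC. In D3, Sqle was at 175, 156 and 190.5 CPM in ground, 87.5, 91.9 and 92.4 CPM in naive and 126, 128 and 123 CPM in EPL. Ground was highest, EPL intermediate and naive lowest in both lines with no overlap. The differences were -1.07 ± 0.06 (edgeR adjusted p = 2.05e-13) in naive against ground, 0.47 ± 0.06 (edgeR adjusted p = 4.78e-07) in EPL against naive and -0.60 ± 0.06 (edgeR adjusted p = 3.07e-09) in EPL against ground. Fdft1, which makes squalene, was lower in naive (-0.64 ± 0.09) and still lower than ground in EPL (-0.50 ± 0.09). Lss, which closes squalene epoxide into lanosterol, was not called in naive against ground (0.06 ± 0.07) and was higher in EPL against both naive (0.53 ± 0.07) and ground (0.59 ± 0.07).

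Among the 8 enzymes that turn lanosterol into cholesterol, 6 were lower in naive than in ground. In EPL against naive 5 were higher and 1 lower. The shares over all genes were 31.8%, 27.1% and 24.1% in that order. Cyp51, which removes the 14-alpha methyl group of lanosterol, was in A2 at 59.7, 68.3 and 73.4 CPM in ground, 38.9, 43.7 and 41.6 CPM in naive, 91.5, 62.4 and 61.7 CPM in EPL and 135, 123 and 113 CPM in EpiSC. In D3, Cyp51 was at 72.8, 64.5 and 94.9 CPM in ground, 58.3, 69.6 and 66.7 CPM in naive and 109.5, 114 and 116 CPM in EPL. EpiSC was above every other A2 library, A2 naive below every one, and D3 EPL above all D3 ground and naive libraries, which overlapped. Cyp51 rose from naive to EPL (0.80 ± 0.10, edgeR adjusted p = 4.68e-07) and from EPL to EpiSC (0.78 ± 0.13, edgeR adjusted p = 2.04e-05).

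Tm7sf2 encodes a sterol reductase that acts on the product of Cyp51. In A2, Tm7sf2 was at 11.1, 13.4 and 7.94 CPM in ground, 5.13, 5.59 and 4.53 CPM in naive, 12.6, 10.6 and 11.5 CPM in EPL and 14.8, 16.6 and 10.1 CPM in EpiSC. In D3, Tm7sf2 was at 11.7, 11.1 and 13.1 CPM in ground, 9.66, 9.92 and 9.08 CPM in naive and 12.8, 14.6 and 14.7 CPM in EPL. A2 naive was below every other A2 library, A2 EPL lay inside the range of A2 ground, and in D3 naive was lowest without overlap. It differed by -0.71 ± 0.12 in naive against ground, 0.87 ± 0.12 in EPL against naive and 1.44 ± 0.17 in EpiSC against naive.

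Msmo1 and Nsdhl act in turn in removing the methyl groups at carbon 4. In A2, Msmo1 was at 77.5, 84.6 and 81.0 CPM in ground, 43.9, 53.2 and 49.1 CPM in naive, 67.6, 49.0 and 49.5 CPM in EPL and 119, 123 and 100.3 CPM in EpiSC. In D3, Msmo1 was at 96.4, 88.3 and 137 CPM in ground, 75.2, 89.7 and 79.5 CPM in naive and 90.1, 98.0 and 104 CPM in EPL. EpiSC was above all other A2 libraries, whereas EPL overlapped naive in A2 and ground in D3. Msmo1 was called lower in naive than in ground (-0.56 ± 0.10), was not called in EPL against naive (0.22 ± 0.10) and was called higher in EpiSC than in EPL (1.04 ± 0.14, edgeR adjusted p = 5.97e-07). In A2, Nsdhl was at 22.2, 22.6 and 25.2 CPM in ground, 16.9, 20.0 and 19.6 CPM in naive, 31.0, 24.0 and 23.2 CPM in EPL and 41.2, 40.7 and 35.2 CPM in EpiSC. In D3, Nsdhl was at 26.1, 23.2 and 31.9 CPM in ground, 25.2, 29.9 and 26.3 CPM in naive and 31.5, 37.3 and 37.0 CPM in EPL. Here too EpiSC was above every other A2 library, and D3 naive lay inside the range of D3 ground. Nsdhl was not called in naive against ground (-0.15 ± 0.09), and rose from naive to EPL (0.42 ± 0.09) and from EPL to EpiSC (0.58 ± 0.12).

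Hsd17b7, the 3-ketosteroid reductase of the same demethylation, separated the groups most, with a 4.20-fold range between the lowest and highest group mean. In A2, Hsd17b7 was at 23.9, 24.4 and 23.8 CPM in ground, 18.4, 17.0 and 18.7 CPM in naive, 19.3, 19.8 and 18.9 CPM in EPL and 39.2, 35.8 and 48.1 CPM in EpiSC. In D3, Hsd17b7 was at 13.8, 12.4 and 13.5 CPM in ground, 8.86, 9.25 and 11.2 CPM in naive and 14.7, 14.7 and 15.4 CPM in EPL. No neighbouring groups in the order of means overlapped, and every D3 library was below every A2 library. The order was A2 EpiSC, A2 ground, A2 EPL, A2 naive, D3 EPL, D3 ground and D3 naive. Hsd17b7 was higher in EpiSC than in EPL by 1.09 ± 0.10 (edgeR adjusted p = 1.53e-09).

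Ebp, the isomerase that moves the double bond of the sterol ring, followed another course. In A2, Ebp was at 35.4, 34.8 and 38.3 CPM in ground, 15.7, 18.9 and 19.2 CPM in naive, 14.4, 13.4 and 13.6 CPM in EPL and 22.1, 22.8 and 19.3 CPM in EpiSC. In D3, Ebp was at 31.7, 31.1 and 35.3 CPM in ground, 21.1, 30.6 and 25.1 CPM in naive and 14.1, 11.6 and 14.6 CPM in EPL. EPL was the lowest group in both lines with no overlap, and ground the highest. EpiSC lay below A2 ground and barely above A2 naive (19.3 against 19.2 CPM at the nearest libraries), and EpiSC against naive was not called. Ebp was lower in naive than in ground (-0.68 ± 0.08, edgeR adjusted p = 1.48e-07) and lower again in EPL than in naive (-0.65 ± 0.09, edgeR adjusted p = 1.45e-06), which made -1.33 ± 0.08 in EPL against ground.

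Dhcr7, the final reductase of one route to cholesterol, was in A2 at 31.1, 30.7 and 32.4 CPM in ground, 28.1, 35.2 and 32.1 CPM in naive, 66.3, 43.8 and 40.4 CPM in EPL and 75.0, 66.5 and 49.9 CPM in EpiSC. In D3, Dhcr7 was at 36.2, 35.2 and 48.0 CPM in ground, 42.0, 46.9 and 45.7 CPM in naive and 69.2, 73.8 and 73.2 CPM in EPL. EPL and EpiSC libraries were above all ground and naive libraries of their line, and naive overlapped ground in both lines. Dhcr7 was not called in naive against ground (0.10 ± 0.11) and was higher in EPL than in naive (0.67 ± 0.11, edgeR adjusted p = 2.67e-05) and ground (0.77 ± 0.11, edgeR adjusted p = 2.02e-06). Sc5d, a desaturase of the same late route, was lower in naive than in ground (-0.61 ± 0.07) and remained lower in EPL (-0.44 ± 0.07).

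**Figure D3:**
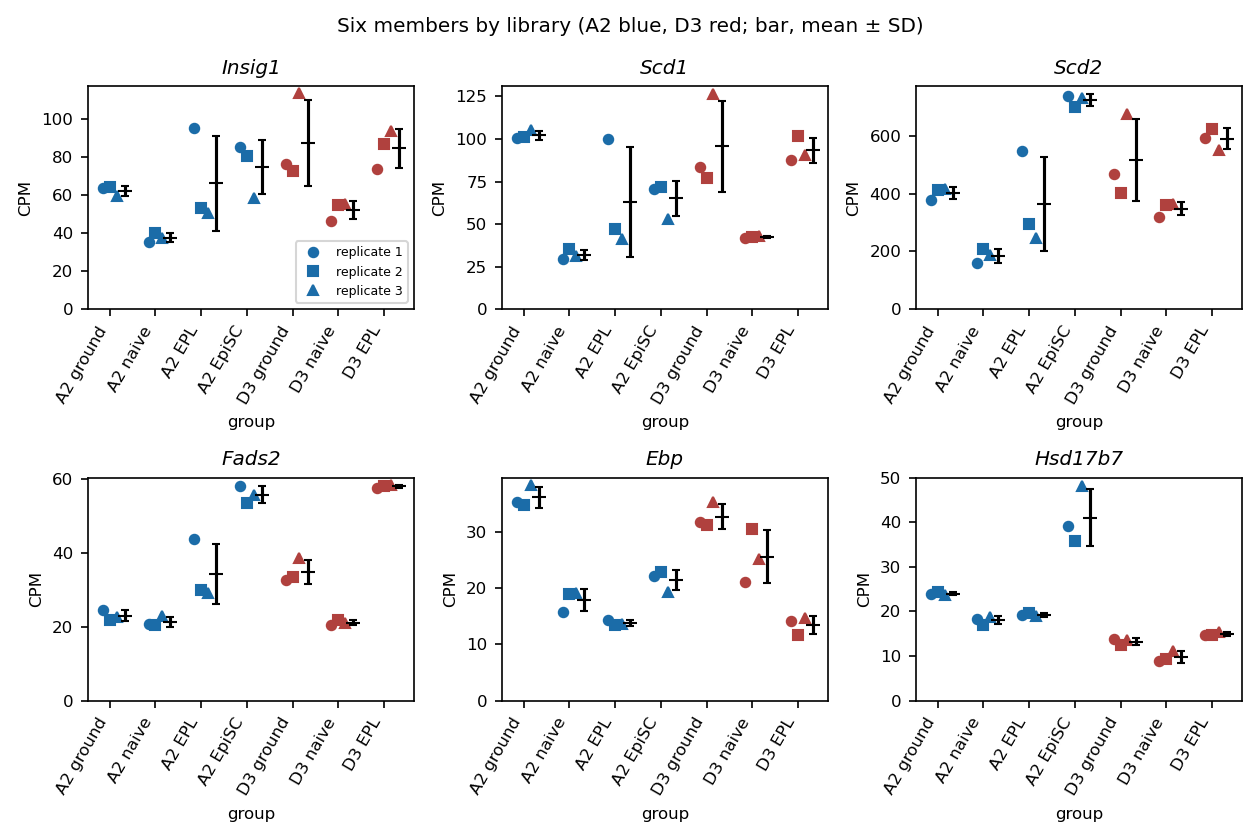
Points are CPM in single libraries by group, with A2 in blue, D3 in red and a marker shape for each replicate number, and black bars are the mean ± SD of 3 libraries. Scd1 and Scd2 in A2 EPL show replicate 1 near 100 and 548 CPM, above its 2 companions. Ebp is lowest in EPL of both lines, and Hsd17b7 is lower in every D3 library than in any A2 library.

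Acetyl-CoA for both branches comes from citrate, through the lyase Acly, or from acetate, through the synthetase Acss2. Per kilobase of exon, Acly was the most abundant of the 30 members in 6 of the 7 groups, at 113 ± 8.0 CPM per kb (SD, n = 3) in A2 ground. Acss2 was the least abundant in every group, at 1.35 ± 0.10 CPM per kb in A2 ground. Length here is the union of all annotated exons, 10163 bases for Acss2, and the rank depends on it. By CPM, Acss2 was above Tm7sf2 in ground (13.8 against 10.8 in A2, 17.0 against 12.0 in D3). It was level with Tm7sf2 in A2 naive and below it in the other groups. Acly had group means within 1.37-fold of each other, and was lower in naive than in ground (-0.21 ± 0.05). Its fall in EPL against ground (-0.11 ± 0.05, edgeR adjusted p = 0.039) was lost without any 1 library other than A2 ground 2, A2 naive 2, A2 EPL 1, the EpiSC libraries and D3 naive 2 and 3, with values from -0.11 to -0.07 in those cases. In A2, Acss2 was at 14.5, 12.6 and 14.2 CPM in ground, 5.25, 4.65 and 5.36 CPM in naive, 9.15, 6.48 and 7.60 CPM in EPL and 11.9, 12.0 and 8.09 CPM in EpiSC. In D3, Acss2 was at 17.5, 16.9 and 16.6 CPM in ground, 5.89, 4.65 and 4.76 CPM in naive and 8.30, 7.22 and 8.13 CPM in EPL. Ground was highest, EPL intermediate and naive lowest without overlap in both lines. Acss2 differed by -1.58 ± 0.10 (edgeR adjusted p = 8.81e-12) in naive against ground and 0.62 ± 0.11 (edgeR adjusted p = 7.31e-05) in EPL against naive.

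Chain synthesis runs through Acaca, the acetyl-CoA carboxylase, and Fasn, the fatty acid synthase, and these 2 genes parted at the first step. In A2, Fasn was at 784, 676 and 718 CPM in ground, 548, 439.9 and 547 CPM in naive, 684, 770.3 and 655 CPM in EPL and 509.6, 458 and 582 CPM in EpiSC. In D3, Fasn was at 882, 843 and 852 CPM in ground, 634, 467 and 628 CPM in naive and 916, 824 and 655 CPM in EPL. Naive was below ground in both lines without overlap, and A2 EpiSC overlapped A2 naive. Fasn differed by -0.54 ± 0.09 (edgeR adjusted p = 1.22e-05) in naive against ground and 0.46 ± 0.09 (edgeR adjusted p = 0.000134) in EPL against naive. Acaca was at 52.6, 50.0 and 54.0 CPM in ground, 71.5, 53.7 and 71.3 CPM in naive, 99.3, 88.8 and 78.8 CPM in EPL and 88.0, 83.3 and 100.5 CPM in EpiSC in A2. In D3, Acaca was at 69.3, 62.8 and 71.7 CPM in ground, 97.0, 65.5 and 104 CPM in naive and 141, 142 and 109.6 CPM in EPL. A2 naive and A2 ground overlapped, as did D3 naive and D3 ground, while EPL was above all of them in both lines. Acaca was higher in naive than in ground (0.36 ± 0.10, edgeR adjusted p = 0.00375), and rose further in EPL (0.50 ± 0.10). In A2 alone its naive difference was 0.33 ± 0.14 (edgeR adjusted p = 0.0617), and was not called. Elovl6, which lengthens the 16-carbon product, was lower in naive than in ground (-0.97 ± 0.07), was not called in EPL against naive (0.02 ± 0.07) and was lower in EPL than in ground (-0.95 ± 0.07).

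The desaturases that put the first double bond into saturated chains are Scd1 and Scd2. In A2, Scd1 was at 100.3, 101 and 105 CPM in ground, 29.4, 35.1 and 31.2 CPM in naive, 100.3, 47.2 and 41.3 CPM in EPL and 70.4, 71.7 and 52.9 CPM in EpiSC. In D3, Scd1 was at 83.4, 77.2 and 126 CPM in ground, 41.8, 42.5 and 43.3 CPM in naive and 87.5, 102 and 90.4 CPM in EPL. Naive was below all other libraries of each line. In A2 EPL replicate 1 was near ground and the other two were closer to naive. Scd1 differed by -1.42 ± 0.16 (edgeR adjusted p = 6e-08) in naive against ground and 1.06 ± 0.16 (edgeR adjusted p = 9.59e-06) in EPL against naive. Without A2 EPL replicate 1 the second value was 0.80, still called. The difference in EPL against ground (-0.37 ± 0.15, edgeR adjusted p = 0.0398) was -0.23 and no longer called without D3 ground replicate 3. The call was also lost without any 1 of A2 ground 1 to 3, A2 naive 1 and 3, A2 EPL 2 and 3, D3 naive 1 and D3 EPL 1 and 3.

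In A2, Scd2 was at 377, 411 and 415 CPM in ground, 158, 207 and 189 CPM in naive, 548, 296 and 248 CPM in EPL and 738, 699.9 and 731 CPM in EpiSC. In D3, Scd2 was at 469, 403 and 677 CPM in ground, 321, 359 and 363 CPM in naive and 592, 625 and 552 CPM in EPL. EpiSC was above every other A2 library, naive below all others of each line, and A2 EPL spanned the whole range of A2 ground. Scd2 differed by -0.84 ± 0.14 (edgeR adjusted p = 1.67e-05) in naive against ground and 0.87 ± 0.14 (edgeR adjusted p = 2.19e-05) in EPL against naive. Per kilobase, Scd2 exceeded Scd1 in every library. The ratio of Scd2 to Scd1 in A2 was 3.51 ± 0.14 in ground, 5.17 ± 0.32 in naive, 5.30 ± 0.37 in EPL and 10.2 ± 1.9 in EpiSC (SD, n = 3 each). In D3 the ratio was 4.83 ± 0.18 in ground, 7.32 ± 0.39 in naive and 5.67 ± 0.33 in EPL. It was thus higher in naive than in ground in both lines without overlap, and highest in EpiSC, and A2 EPL replicate 1 did not stand apart in it since both genes were high there.

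Fads1 and Fads2, neighbours on chromosome 19, add further double bonds in making polyunsaturated chains. In A2, Fads1 was at 59.6, 57.2 and 57.7 CPM in ground, 39.0, 40.5 and 39.7 CPM in naive, 56.2, 41.4 and 40.3 CPM in EPL and 104, 98.2 and 109.8 CPM in EpiSC. In D3, Fads1 was at 70.5, 73.9 and 80.7 CPM in ground, 50.6, 48.9 and 51.2 CPM in naive and 64.6, 67.2 and 73.1 CPM in EPL. EpiSC was above all other A2 libraries, and A2 EPL overlapped A2 naive. Fads1 was lower in naive than in ground (-0.56 ± 0.07, edgeR adjusted p = 1.22e-07) and higher in EpiSC than in EPL (1.18 ± 0.09, edgeR adjusted p = 2.03e-10). In A2, Fads2 was at 24.5, 21.7 and 22.6 CPM in ground, 20.6, 20.4 and 22.9 CPM in naive, 43.6, 29.8 and 29.2 CPM in EPL and 58.0, 53.5 and 55.5 CPM in EpiSC. In D3, Fads2 was at 32.6, 33.4 and 38.6 CPM in ground, 20.5, 21.8 and 20.9 CPM in naive and 57.5, 58.1 and 58.3 CPM in EPL. A2 ground and A2 naive overlapped, EPL was above both in each line, and EpiSC was above all other A2 libraries. Fads2 rose from naive to EPL by 1.07 ± 0.08 (edgeR adjusted p = 3.52e-10).

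Most members were higher in EpiSC than in A2 naive, and 7 of the 8 enzymes after lanosterol, with Scd2, Fads1 and Fads2, were higher in EpiSC than in A2 EPL. In EpiSC against naive 24 members were higher and 1 lower, against 39.1% and 31.2% of all genes, with a median of 0.71 beside 0.08 over all genes. In EpiSC against EPL 15 were higher, 3 lower and 12 not called, against 39.1% higher and 31.3% lower over all genes, with medians of 0.28 and 0.07. The sterol branch had 9 of 20 higher, a share near that of all genes, and 1 lower. The fatty acid branch had 6 higher and 2 lower. Of the enzymes after lanosterol Tm7sf2 was not called (0.26 ± 0.16), nor was Scd1 of the desaturases (0.05 ± 0.22), and 0 of the 6 mevalonate enzymes were called. The largest differences were Fads1 (1.18 ± 0.09), Hsd17b7 (1.09 ± 0.10), Msmo1 (1.04 ± 0.14) and Scd2 (0.99 ± 0.20). Lss (-0.53 ± 0.10), Fasn (-0.45 ± 0.12) and Acly (-0.26 ± 0.07) were lower in EpiSC.

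The count in EpiSC against EPL moved with the EPL library that stood apart. Without A2 EPL replicate 1, 21 members were higher and 3 lower, beside 6464 higher and 4968 lower of 17044 genes. The sterol branch had 14 higher in that fit. Insig1 was then called (0.53 rather than 0.18), as were Scd1 (0.55 rather than 0.05), Mvd, Fdps, Sqle and Srebf2. The call of Dhcr7 (0.35 ± 0.15, edgeR adjusted p = 0.0478) was lost with RLE size factors (0.33), and without any 1 library other than A2 naive 2, A2 EPL 1, EpiSC 3, D3 ground 3 and D3 naive 2. Scaling to total counts gave 19 higher and 1 lower, beside 7966 higher and 3638 lower of 16575 genes. It moved the median of all genes to 0.27.

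Against A2 ground, EpiSC was mixed, with 13 members higher, 8 lower and 9 not called, against 39.1% higher and 34.1% lower over all genes. These shares are near those of the members. The medians were 0.14 for the members and 0.04 for all genes. Of the sterol members 8 were higher and 3 lower, and of the fatty acid members 5 were higher and 5 lower. Fads2 (1.28 ± 0.11), Dhcr7 (1.02 ± 0.16), Cyp51 (0.88 ± 0.13), Scd2 (0.85 ± 0.20) and Fads1 (0.84 ± 0.09) were the largest rises. Ebp (-0.75 ± 0.11), Scd1 (-0.65 ± 0.22) and Sqle (-0.63 ± 0.08) were the largest falls, so the paired desaturases Scd1 and Scd2 went opposite ways. With scaling to total counts 20 were higher and 2 lower, beside 8280 higher and 3658 lower of 16575 genes. The all-gene median was then 0.30, so the split depends on the scaling. Under that scaling Scd1 was at -0.39 (adjusted p = 0.105, edgeR).

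**Figure D4:**
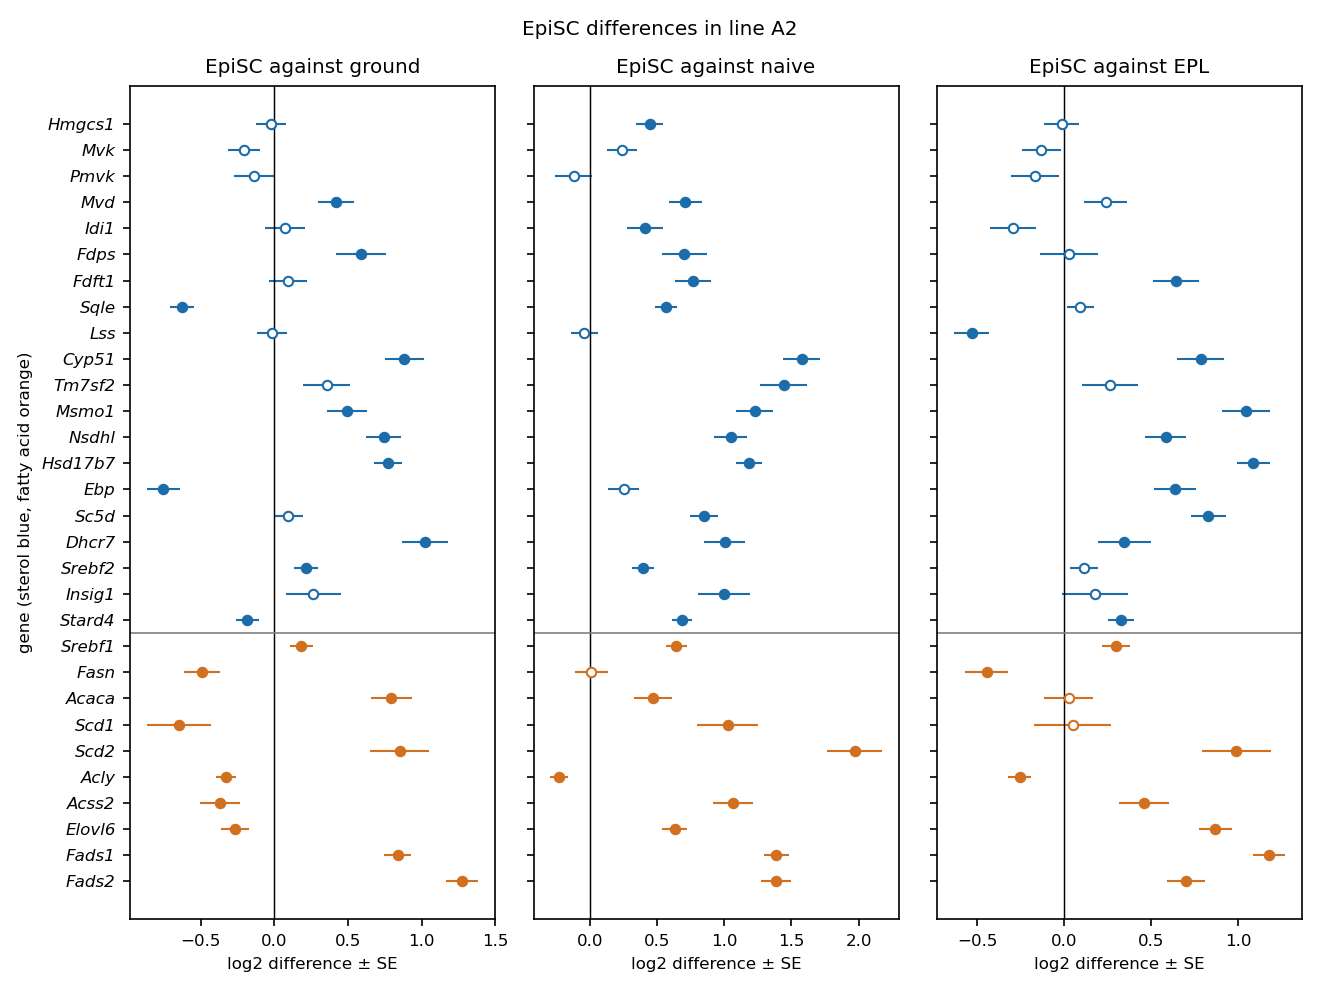
Points are log2 differences of A2 EpiSC from A2 ground, naive and EPL, with bars of 1 SE and filled points called at an edgeR adjusted p below 0.05. Against naive 24 of 30 genes are called above 0, and against ground 13 are called above and 8 below.

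The mean level of each branch puts these changes on 1 scale. It is the mean over the enzymes of log2 CPM relative to each gene's mean over all libraries, over 17 sterol and 9 fatty acid enzymes, and is given without a test. The sterol mean in A2 was 0.04 ± 0.03 in ground, -0.46 ± 0.07 in naive, -0.07 ± 0.23 in EPL and 0.26 ± 0.13 in EpiSC (SD, n = 3 each). The fatty acid mean in A2 was 0.10 ± 0.05, -0.58 ± 0.05, -0.14 ± 0.25 and 0.28 ± 0.04 in the same order. A2 naive is below every other A2 library in both branches, and in A2 EPL replicate 1 is at 0.20 and 0.14, above its 2 companions. In D3 the sterol mean was 0.10 ± 0.18 in ground, -0.14 ± 0.08 in naive and 0.25 ± 0.06 in EPL, and the fatty acid mean 0.36 ± 0.12, -0.34 ± 0.11 and 0.32 ± 0.06. D3 naive is below D3 ground and EPL in both branches, while ground and EPL overlap, in the sterol branch through D3 ground replicate 3.

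**Figure D5:**
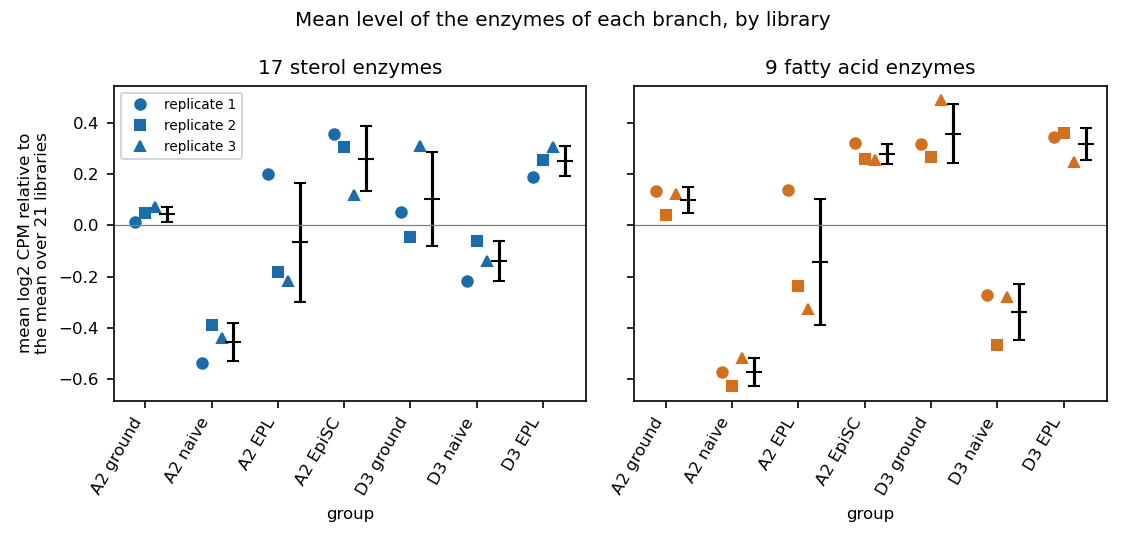
Points are the mean log2 CPM of the enzymes of a branch relative to the mean over 21 libraries, by library, with marker shapes for replicates and black bars for mean ± SD of 3 libraries. A2 naive, at -0.46 and -0.58, is the lowest group in both panels.

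D3 cells had higher levels of most members than A2 cells. Averaged over ground, naive and EPL, 18 members were higher in D3, 1 lower and 11 not called, against 20.0% higher and 20.7% lower over all genes, with medians of 0.23 and 0.00. Mvd (0.70 ± 0.07), Scd2 (0.66 ± 0.11) and Msmo1 (0.65 ± 0.08) had the largest rises. Mvd was higher in D3 in each stage (0.63 ± 0.12 in ground, 0.86 ± 0.12 in naive and 0.60 ± 0.12 in EPL). Hsd17b7 was the member lower in D3 (-0.70 ± 0.06, edgeR adjusted p = 2.91e-09), also in each stage (-0.86 ± 0.10, -0.88 ± 0.11 and -0.37 ± 0.10). In ground alone 4 members were higher and 2 lower, against 9.13% and 10.9% of all genes, shares near those of the members. Each is a single line, so these values describe A2 and D3 themselves.

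The size of a step was called different between the lines for 2 to 4 of the 30 members, and for the 2 comparisons with EPL that is near the share of all genes. The difference between the 2 lines in naive against ground was called for 2 members, against 3.06% of all genes in either direction. These were Ebp, with -1.01 ± 0.12 in A2 and -0.35 ± 0.11 in D3, and Fads2, with -0.11 ± 0.11 in A2 and -0.72 ± 0.11 in D3. In EPL against naive 4 members were called, against 12.7% of all genes, namely Fads2, Ebp, Elovl6 and Hsd17b7. Fads2 rose by 0.68 ± 0.11 in A2 and 1.46 ± 0.11 in D3, a difference of 0.78 ± 0.16 (edgeR adjusted p = 0.0023). In EPL against ground 3 members were called, against 13.3% of all genes, namely Sc5d, Stard4 and Hsd17b7. Sc5d had -0.73 ± 0.10 in A2 and -0.15 ± 0.10 in D3, and Stard4 had -0.51 ± 0.08 and -0.06 ± 0.08. Without A2 EPL replicate 1 the last count was 10 of the 30. Over all genes that fit called 1359 higher and 1036 lower of 17044, beside 1202 and 1004 of 16575 with every library. Without both A2 EPL replicate 1 and D3 ground replicate 3 the count was 14. It is not read further, since no all-gene share is given here. The count of members thus moved when A2 EPL replicate 1 was left out.

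A wider list of 31 genes of the same pathways, which are not members, was counted in the same way. In naive against ground 18 were lower and 5 higher, against 31.8% and 31.7% of all genes. In EPL against naive 19 were higher and 4 lower, against 27.1% and 24.1%. In EpiSC against EPL 14 were higher and 5 lower, against 39.1% and 31.3%, and the share higher was near that of all genes. Scap, which escorts the SREBPs, was lower in naive (-0.32 ± 0.05) and higher in EpiSC than in EPL (0.99 ± 0.08). Me1, the malic enzyme that supplies NADPH, was lower in naive (-1.39 ± 0.05) and not higher in EPL by the test (0.10 ± 0.05). Mid1ip1, which activates acetyl-CoA carboxylase, went the other way in naive against ground (1.96 ± 0.13), as Acaca itself did.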

How the data were processed

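The deposited values are raw read counts per gene, which the authors made with HISAT2, SAMtools and featureCounts on the mouse build GRCm38, per the submitters' processing notes. Versions, annotation and strand use were not given in the sources used here. Libraries were made with a TruSeq RNA kit (v2), per the labels. Total counts of 15320599 to 23490527 per library limit precision most for genes of low count. The filter filterByExpr (minimum count 10) left 16575 of 39396 genes. Counts were scaled by TMM and fitted with edgeR 4.0.16 in R 4.3.3 (glmQLFit and glmQLFTest, 1 mean per group, all 21 libraries), with Benjamini-Hochberg adjustment over all genes tested. SEs come from the log2 difference and its F statistic. The fit was tested on simulated data. Exon lengths for CPM per kb are from GENCODE M21, and promoter windows from RefSeq.

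The members, lists, comparisons and named-gene rule were chosen with earlier results of these data known. Values per library are given for members called with an absolute log2 difference of at least 1 and for 8 fixed members, and Acaca was added after its values were seen. Alternatives were RLE and total-count scaling, other filters, DESeq2 1.42.0, a replicate block, single lines or stages and leaving out libraries. Some genes of the wider pathway list are counted and not reported by name.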

Additional observations from a re-analysis of the deposited data

Results flagged for a closer look

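These 9 differences between the lines passed the edgeR interaction test, given as the D3 step minus the A2 step. In naive against ground, Ebp had 0.66 (edgeR adjusted p = 0.0251), the fall being larger in A2, and Fads2 had -0.62 (edgeR adjusted p = 0.0365), the fall being larger in D3. In EPL against naive, Fads2 had 0.78 (edgeR adjusted p = 0.0023), Elovl6 0.51 (edgeR adjusted p = 0.0127), Hsd17b7 0.51 (edgeR adjusted p = 0.025) and Ebp -0.55 (edgeR adjusted p = 0.038). Elovl6 went from naive to EPL by -0.24 ± 0.09 in A2 and 0.27 ± 0.09 in D3, and Hsd17b7 by 0.10 ± 0.10 and 0.61 ± 0.11. In EPL against ground, Sc5d had 0.58 (edgeR adjusted p = 0.00872), Hsd17b7 0.49 (edgeR adjusted p = 0.0264) and Stard4 0.45 (edgeR adjusted p = 0.00706).

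Leaving out each of the 21 libraries in turn kept the calls of Fads2 and Elovl6 in EPL against naive and of Sc5d and Stard4 in EPL against ground. For naive against ground, the call of Ebp was lost without A2 ground 3, A2 naive 1, D3 ground 1, D3 ground 2 or D3 naive 2 (range 0.51 to 0.78), and that of Fads2 in 10 of 21 cases (-0.67 to -0.54). For EPL against naive, Ebp was lost in 6 cases (-0.69 to -0.40) and Hsd17b7 in 7 (0.42 to 0.61), and for EPL against ground Hsd17b7 in 8 (0.42 to 0.51).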

How the results depend on the processing

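Numbers of members called higher or lower stayed within 1.5 times the reported ones under most alternatives. In naive against ground 0 members were higher in A2 alone, and in EPL against ground 5 were lower in D3 alone. Total-count scaling gave 1 lower in EpiSC against EPL, 0 lower in EpiSC against naive, and 20 higher and 2 lower in EpiSC against ground. Over the 16575 genes it gave 3638 lower, 3854 lower, and 8280 higher and 3658 lower in the same order. That scaling moved the all-gene medians of these comparisons to 0.27, 0.26 and 0.30. With it, the sign turned in EpiSC against ground for Hmgcs1 (0.24), Lss (0.25) and Stard4 (0.079). D3 against A2 had 4 higher and 2 lower members in ground alone, with signs turned for Sqle in ground (-0.023), Stard4 in EPL (0.22) and Elovl6 (-0.024) and Fads2 (-0.016) in naive. The cause was not tested. Interaction calls in naive against ground were 6 with no filter on low counts, beside 426 higher and 420 lower of 28040 genes. In EPL against ground they were 7 with no filter, beside 1192 higher and 1133 lower of 28040. Without both libraries that stood apart, an alternative chosen after seeing the data, these calls were 6 and 14. The all-gene counts of that fit are not given here. Leaving out each library in turn gave 0 to 3 calls in naive against ground, 2 to 6 in EPL against naive and 2 to 10 in EPL against ground. The count was 0 without A2 naive replicate 1, beside 160 higher and 169 lower of 17017 genes. It was also 0 without D3 ground replicate 2, beside 155 and 155 of 16955. The 10 came without A2 EPL replicate 1, beside 1359 and 1036 of 17044. EpiSC against EPL ranged from 13 to 21 higher, with 21 reached without A2 EPL replicate 1, beside 6464 of 17044 genes.

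Most same-numbered libraries did not deviate together, with median correlations of 0.00058, -0.052 and -0.032 for replicates 1 to 3. At most 3 of 21 pairs were over 0.1, and the highest correlation, between 2 libraries of replicate 2, was 0.36. The numbers were not treated as pairs in the main fit, and what joins the pairs over 0.1 was not tested. With a replicate block, EPL against naive had 23 members higher and 1 lower, naive against ground 22 lower, and 297 of 300 gene results kept their call, 1 was lost and 2 were gained. Depth limits the genes with few counts most, and 3 libraries per group limit every SE.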

Other observations

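Naive replicate 2 of both lines, chosen after its values were seen, was low in Acaca and Fasn and not in Scd1 and Scd2. In A2 naive replicate 2, Acaca was 0.752 times and Fasn 0.803 times the mean of the other 2 libraries, while Scd2 was 1.19 times and Scd1 1.16 times that mean. In D3 naive replicate 2, Acaca was 0.653 times, Fasn 0.741 times and Elovl6 0.733 times the mean of its companions, and Scd1 and Scd2 were at 0.999 and 1.05 times.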
